A study of Danio rerio with 4 samples.

Results

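The genes described here are 10 zebrafish genes of acute inflammation and prostaglandin synthesis, picked by symbol from 35066 Ensembl identifiers: the chemokines cxcl18b and cxcl8a, the cytokine il1b, the acute phase gene SAA2, the cyclooxygenase genes ptgs1 and PTGS2 (2 identifiers, for the copies ptgs2a and ptgs2b), the prostaglandin D synthase genes ptgdsb.1 and ptgdsb.2, and the prostaglandin E synthase gene PTGES. They were proposed with the values of all 4 libraries in view, so their levels are given as a description, with no test. The values came from testes of wild type AB zebrafish, 5 months old and male per the labels (the series' design text says female), after 30 days with dibutyl phthalate (DBP), diisobutyl phthalate (DiBP) or both together (DBP+DiBP), and from a control. Both compounds are plasticizers, and they are isomers: the butyl chains of DBP are linear and those of DiBP branched. No label gives doses or the vehicle of the control, or says how many fish gave each RNA sample. Each group was 1 library, so no value here has a replicate error and every difference describes these libraries.

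Acute inflammation begins when resident cells release interleukin 1 and chemokines that draw neutrophils out of the blood, and it is followed by acute phase proteins from the liver and other tissues. Prostaglandins are made in the same setting. Cyclooxygenases turn arachidonic acid into the precursor prostaglandin H2, one form being largely constitutive and the other inducible, and terminal synthases turn that precursor into prostaglandin E, D, F or I, or thromboxane. In the mouse testis prostaglandin D2 is known as a signal that sustains Sertoli cell identity, and in fish prostaglandins also act as reproductive signals.

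Levels were taken as FPKM (fragments counted per gene, scaled for its length and for library size), a unit inferred from the values because no header names it. Differences are those of log2(FPKM + 1), a scale that understates folds of weakly expressed genes, and a gene is called higher or lower when that difference reached 2-fold. Total FPKM lay between 547485 and 605447 per library. The spacing of low values put sequencing depth between 1.05 and 1.1 times that of control, although read numbers were not given. Markers of germ cells, Leydig cells and Sertoli cells were detected in each library, and their summed FPKM was 1763 in DBP, 1607 in DiBP, 764 in DBP+DiBP and 1495 in control for 6 germ cell markers. In the same order of libraries it was 2746, 1161, 423 and 2275 for 5 Leydig cell markers, and 262, 240, 429 and 240 for 5 Sertoli cell markers. Most of the Leydig sum was insl3, at 2455, 1044, 293 and 2072. Most of the Sertoli sum in DBP+DiBP was gsdf, at 340 FPKM against 55.0 in control. The markers amh (31.3 against 79.1) and DMRT1 (54.4 against 105) were lower there, and the weakly expressed FSHR and SOX9 features higher. The DBP+DiBP library stood apart in markers of other tissues. It had 2589 FPKM summed over gut markers, 2323 of them from FABP6, against 8.94 in control, 6.45 of them from FABP6. Its values below are given beside those of the other libraries, and fewer cells of a type and less RNA per cell cannot be told apart in such bulk samples.

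All 10 identifiers were found. ptgdsb.1 and ptgdsb.2 carried the same values in each library and neighbour each other in RefSeq's gene order, so they count as 1 feature and neither copy's own level is known. The name table gives both cyclooxygenase-2 identifiers as PTGS2 with no copy letter, so they are told apart here by Ensembl number. All 9 features averaged at least 1 FPKM over the 4 libraries and were compared, among 23405 features in all.

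**Figure D1:**
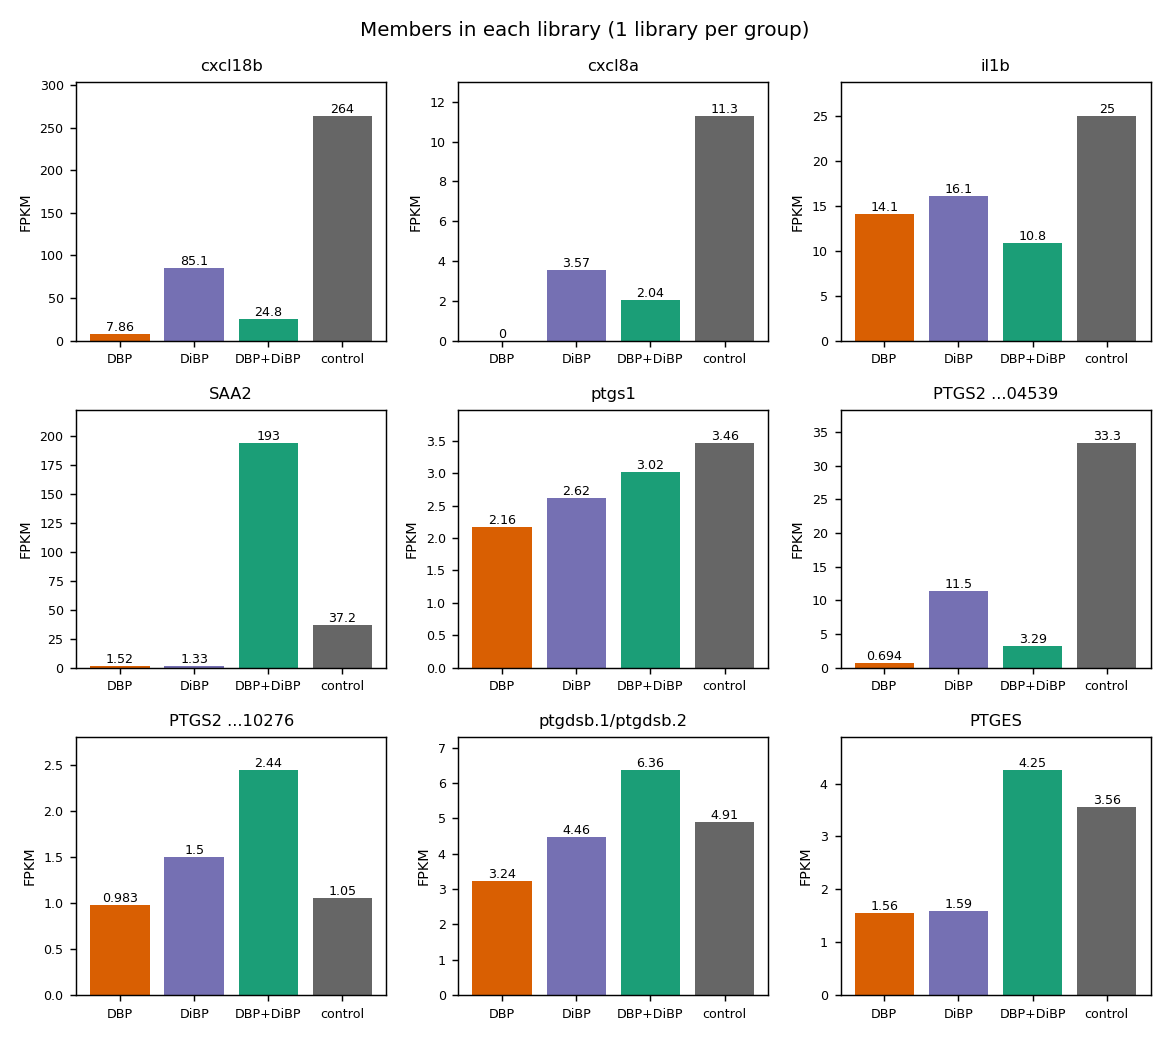
FPKM (vertical axis, from 0, scaled per gene) of the 9 member features in the DBP, DiBP, DBP+DiBP and control libraries, 1 bar per library with no error since each group is 1 library; PTGS2 genes are marked with the last digits of their Ensembl number. Control is the highest bar for cxcl18b, cxcl8a, il1b, ptgs1 and PTGS2 ENSDARG00000004539, and DBP+DiBP for the other features.

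The chemokine genes were lower in each exposed library than in control. The chemokine cxcl18b, which draws neutrophils in zebrafish, had 7.86 FPKM in DBP, 85.1 FPKM in DiBP and 24.8 FPKM in DBP+DiBP, against 264 in control. Control was the highest and DBP the lowest, and the level in DBP was 33.5 times lower than in control. In DiBP it was 3.099 times lower and in DBP+DiBP 10.7 times lower, so the DiBP library kept the most cxcl18b of the exposed ones. The related chemokine cxcl8a, the fish counterpart of interleukin 8, was listed at 0 in DBP and had 3.57 FPKM in DiBP and 2.04 in DBP+DiBP, against 11.3 in control. The order of the libraries was the same as for cxcl18b, at lower levels. No fold is given for DBP, where the listed 0 may also be a failed estimate, and cxcl8a was 3.16 times lower in DiBP and 5.52 times lower in DBP+DiBP than in control.

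The interleukin gene il1b, whose product starts the cytokine cascade, varied less. It had 14.1 FPKM in DBP, 16.1 FPKM in DiBP and 10.8 FPKM in DBP+DiBP, against 25.0 in control. Control was again the highest, but the lowest library was DBP+DiBP and not DBP. The difference from control was -0.78 on the log2 scale in DBP and -0.60 in DiBP, both under 2-fold, and -1.14 in DBP+DiBP, where il1b was called lower. Thus il1b kept 14.1 FPKM in the library where cxcl8a was listed at 0.

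SAA2, named after the human acute phase protein serum amyloid A, had the widest range of the members on the log2(FPKM + 1) scale. In plain FPKM the range of cxcl18b was wider. SAA2 had 1.52 FPKM in DBP, 1.33 FPKM in DiBP and 193 FPKM in DBP+DiBP, against 37.2 in control. The single exposures lay close to each other and far under control, and the joint exposure lay above it. SAA2 was 24.5 times lower in DBP and 28.0 times lower in DiBP than in control, and 5.20 times higher in DBP+DiBP. The DBP+DiBP level was 127 times that of DBP and 146 times that of DiBP. SAA2 was the 1 member called in opposite directions against control in different exposed libraries.

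The 3 cyclooxygenase genes differed among themselves. PTGS2 ENSDARG00000004539, one of the inducible cyclooxygenase-2 copies, had 0.694 FPKM in DBP, 11.46 FPKM in DiBP and 3.29 FPKM in DBP+DiBP, against 33.3 in control. Its order of libraries was that of cxcl18b and cxcl8a, and it was 48.0 times lower than control in DBP, 2.91 times lower in DiBP and 10.1 times lower in DBP+DiBP. PTGS2 ENSDARG00000010276, the other copy, had 0.983 FPKM in DBP, 1.499 FPKM in DiBP and 2.44 FPKM in DBP+DiBP, against 1.05 in control. It stayed under 2-fold on the log2(FPKM + 1) scale in each comparison with control, and its highest library was DBP+DiBP, at 2.32 times the control FPKM. The constitutive cyclooxygenase gene ptgs1 had 2.16 FPKM in DBP, 2.62 FPKM in DiBP and 3.02 FPKM in DBP+DiBP, against 3.46 in control, with differences between -0.50 and -0.15. As a share of the summed FPKM of the 3 genes, PTGS2 ENSDARG00000004539 made up 18.1% in DBP, 73.5% in DiBP and, for DBP+DiBP, 37.6%, against 88.1% in control. In DBP the largest share, 56.3%, was that of ptgs1.

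The terminal prostaglandin synthases varied by less than the chemokines. PTGES, which makes prostaglandin E2, had 1.56 FPKM in DBP, 1.59 FPKM in DiBP and 4.25 FPKM in DBP+DiBP, against 3.56 in control. The single exposures were the low libraries, with differences from control of -0.83 and -0.82, both under 2-fold on that scale, although the plain FPKM ratios were 2.29 and 2.24. The shared value of ptgdsb.1 and ptgdsb.2, lipocalin-type synthases of prostaglandin D2, was 3.24 FPKM in DBP, 4.46 FPKM in DiBP and 6.36 FPKM in DBP+DiBP, against 4.91 in control. These libraries span less than 2-fold, with DBP lowest and DBP+DiBP highest. PTGES and the ptgdsb pair shared 1 order of libraries, DBP+DiBP over control over DiBP over DBP, which was that of 1158 features, or 4.95% of those compared.

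**Figure D2:**
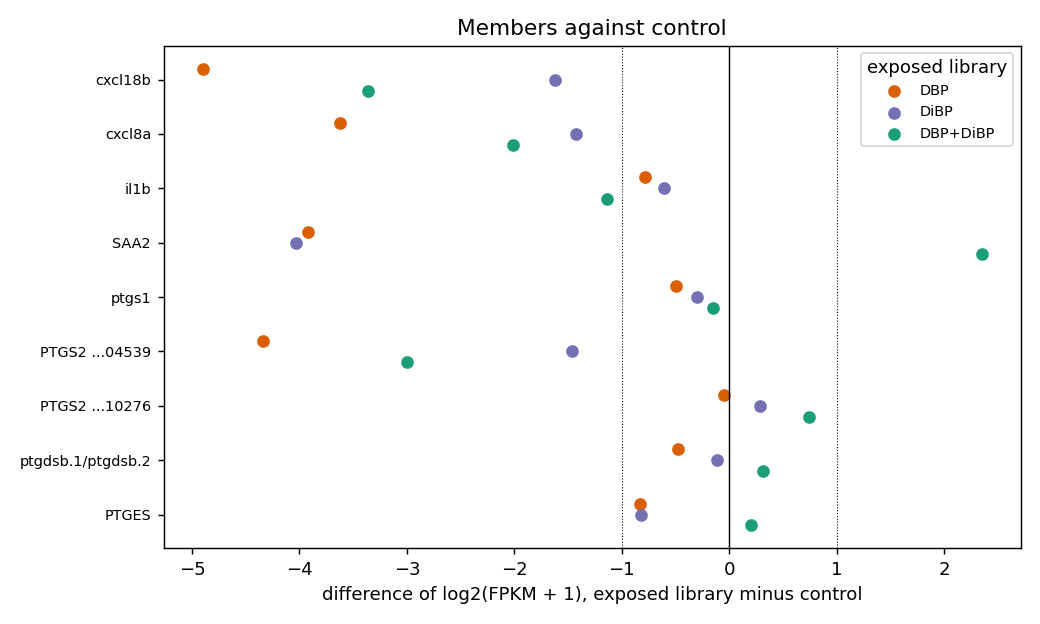
Difference of log2(FPKM + 1), exposed library minus control, for the 9 member features, with 1 point each for DBP, DiBP and DBP+DiBP and dotted lines at 2-fold; the 3 comparisons share 1 control library. cxcl18b, cxcl8a and PTGS2 ENSDARG00000004539 lie left of the lower line in each exposed library, and SAA2 lies left of it for DBP and DiBP and right of the upper line for DBP+DiBP, at 2.35.

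Counted over the 9 features, 4 were lower in DBP than in control and 0 higher, namely cxcl18b, cxcl8a, SAA2 and PTGS2 ENSDARG00000004539, while 11.2% of all features were called, 4.50% lower and 6.68% higher. The median difference of the members was -0.83, and that of all features 0.05. In DiBP the same 4 were lower and 0 higher (8.46% of all features called, 3.86% lower and 4.60% higher), with a median of -0.82 beside -0.01. In DBP+DiBP 4 were lower, cxcl18b, cxcl8a, il1b and PTGS2 ENSDARG00000004539, and SAA2 was higher (16.0% of all features called, 6.42% lower and 9.57% higher), with a median of -0.15 beside -0.11. Since the members were picked with these values known, nothing is read from their counts. The order control, DiBP, DBP+DiBP, DBP from high to low, seen in cxcl18b, cxcl8a and PTGS2 ENSDARG00000004539, was that of 691 features, or 2.95% of those compared.

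DiBP and DBP were set side by side as isomers, at doses that no label gives. The 3 features with the largest gap were cxcl18b, with 85.1 FPKM in DiBP and 7.86 in DBP, PTGS2 ENSDARG00000004539, with 11.46 in DiBP and 0.694 in DBP, and cxcl8a, with 3.57 in DiBP and a listed 0 in DBP. These 3 of 9 features were higher in DiBP and 0 were lower (6.97% of all features called, 2.65% higher and 4.32% lower). The log2 difference was 3.28 for cxcl18b and 2.88 for PTGS2 ENSDARG00000004539. SAA2, at 1.33 FPKM in DiBP and 1.52 in DBP, and PTGES, at 1.59 in DiBP and 1.56 in DBP, had nearly equal values, with differences of -0.11 and 0.02. With 1 library per compound there is no interval for any of these differences, so near values do not show that the isomers act alike.

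The joint exposure was set against each single exposure. Against DBP, 5 of 9 features were higher in DBP+DiBP and 0 lower (21.5% of all features called, 10.2% higher and 11.3% lower): cxcl18b, cxcl8a, SAA2, PTGS2 ENSDARG00000004539 and PTGES. Against DiBP, SAA2 and PTGES were higher and cxcl18b and PTGS2 ENSDARG00000004539 lower (18.6% of all features called, 10.5% higher and 8.19% lower). PTGES passed 2-fold narrowly, at 1.04 against DBP and 1.02 against DiBP, and was under it at 0.99 and 0.93 with library totals made equal. The chemokines and that PTGS2 gene thus lay between DBP and DiBP in the joint library, while SAA2 and PTGES lay above both.

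If both phthalates shifted log2 levels independently, each at its single-exposure dose, the joint difference from control would equal the sum of the single differences. No label gives doses, so whether that premise holds is unknown. For cxcl18b that sum was -6.52 and the joint difference -3.36, and for PTGS2 ENSDARG00000004539 they were -5.80 and -3.00. SAA2 was furthest off, with a sum of -7.96 and a joint difference of 2.35, a departure of 10.30. The smallest departure was that of il1b, 0.25. The 9 departures lay between 0.25 and 10.30, and 5 of the 9 were at least 1, while 3524 of all features (15.1%) were at or above 1 and 4671 at or below -1. The median departure was 1.86 for the members and -0.16 for all features. Since log2(FPKM + 1) cannot go below 0, the joint difference had a lower limit of -5.25 for SAA2, -3.62 for cxcl8a and -5.10 for PTGS2 ENSDARG00000004539, and the sums of these 3 lay past it. A positive departure was therefore fixed by the scale for these 3, of at least 2.70 for SAA2, 1.43 for cxcl8a and 0.70 for PTGS2 ENSDARG00000004539, and nothing is read from its sign. SAA2 and cxcl8a could thus not fall below 1, and the members were picked with these values known. For both reasons nothing is read from the count of 5 or from the members' median departure. The departures have no error, and that of cxcl8a also rests on the pseudocount because of its listed 0.

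**Figure D3:**
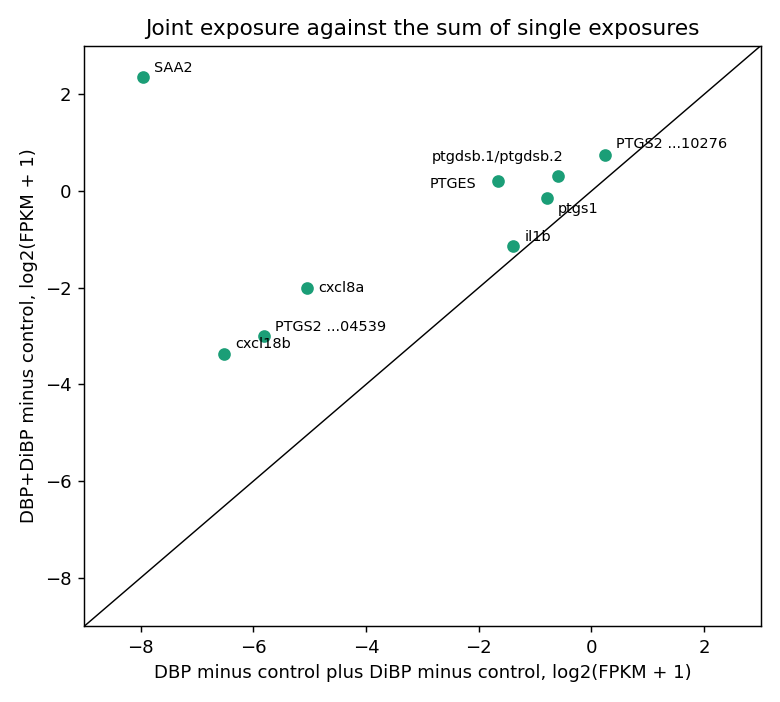
Joint difference from control (DBP+DiBP minus control, vertical) against the sum of the single differences (DBP minus control plus DiBP minus control, horizontal), both of log2(FPKM + 1), with 1 point per member feature and the line of equality. The 9 points lie above the line, il1b closest to it at 0.25 and SAA2 farthest at 10.30; for SAA2, cxcl8a and PTGS2 ENSDARG00000004539 the scale's lower limit allows no other side.

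By the smallest distance between centred log2 profiles over the 4 libraries, among named features that averaged 5 FPKM or more, cxcl18b was most like PTGS2 ENSDARG00000004539 (distance 0.42), TIMP2 ENSDARG00000075261 (0.64) and HSPB1 (1.12). For PTGS2 ENSDARG00000004539 the nearest were TIMP2 ENSDARG00000075261 (0.23), cxcl18b (0.42) and HSPB1 (0.70). TIMP2 ENSDARG00000075261, named after an inhibitor of matrix metalloproteases, had 0.722 FPKM in DBP, 10.5 FPKM in DiBP and 3.45 FPKM in DBP+DiBP, against 28.2 in control. HSPB1, a small heat shock protein, had 6.13 FPKM in DBP, 35.0 FPKM in DiBP and 14.4 FPKM in DBP+DiBP, against 74.6 in control. For SAA2 the nearest were PLAC8 ENSDARG00000094438 (1.17), tfa, the transferrin gene (1.52), and an entry for 5.8S ribosomal RNA (1.87), and tfa is also a hepatocyte marker. For il1b, whose range was small, UNG (0.08), rgs16 (0.08) and NOP56 (0.08) were nearest. Profiles over 4 points are easily alike, so these distances are descriptive.

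The rest of the prostaglandin pathway was taken from a list of 36 symbols, 30 of them matched and 16 features compared, and few of these were called. In DBP 1 was lower, PTGIS, the prostacyclin synthase, with 1.23 FPKM in DBP against 4.45 in control. PTGIS had 2.25 FPKM in DiBP and 2.01 in DBP+DiBP, with differences of -0.75 and -0.86, under the 2-fold call. In DiBP 1 was higher, PTGER4 ENSDARG00000059236, a receptor for prostaglandin E2, with 9.57 FPKM in DiBP against 3.75 in control. This PTGER4 gene had 3.93 FPKM in DBP and 8.25 in DBP+DiBP, where its difference of 0.96 was just under the call. In DBP+DiBP 2 were higher, prxl2b, the counterpart of a mammalian prostaglandin F synthase, with 75.7 FPKM in DBP+DiBP against 17.3 in control, and ptgr1.2, a prostaglandin reductase, with 10.6 FPKM in DBP+DiBP against 0.763 in control. The carbonyl reductase gene cbr1l had 15.5 FPKM in DBP, 17.9 FPKM in DiBP and 39.7 FPKM in DBP+DiBP, against 23.3 in control. The list's median difference from control was -0.06 in DBP as in DiBP, and -0.13 in DBP+DiBP, close to the medians of all features (0.05 for DBP, -0.01 for DiBP, -0.11 for DBP+DiBP). Without ptgr1.2, which averaged 1 FPKM only through DBP+DiBP, 1 of 15 was higher in DBP+DiBP and the median was -0.32. Of 16 leukotriene and lipoxygenase symbols only 4 features were compared, alox5b.2, LTA4H, alox5b.3 and alox12, and none of them reached 2-fold against control. At the shares of all features given above, 4 features are too few to read anything from this. Of these, alox5b.2 averaged 1 FPKM only through DBP+DiBP. LTA4H, which makes leukotriene B4, had 12.1 FPKM in DBP, 11.3 FPKM in DiBP and 19.3 FPKM in DBP+DiBP, against 11.9 in control.

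Other chemokines did not move as one with cxcl18b. Of 24 compared, 5 were lower and 1 higher in DBP than in control (4.50% of all features lower and 6.68% higher). The DiBP library had 3 lower and 0 higher, beside 3.86% and 4.60% of all features. The joint library had 2 lower and 6 higher, beside 6.42% and 9.57%. The list's median was -0.03 in DBP, where that of all features was 0.05. It was -0.49 in DiBP, beside -0.01, and 0.33 in the joint library, beside -0.11. Of the 21 that averaged 1 FPKM without the DBP+DiBP library, 4 were lower and 1 higher in DBP, and 2 lower and 0 higher in DiBP. In DBP+DiBP 2 of the 21 were lower and 4 higher, with a median of -0.01. The chemokine cxcl8b.1, a paralog of cxcl8a, had 0.289 FPKM in DBP, 2.37 FPKM in DiBP and 13.4 FPKM in DBP+DiBP, against 4.21 in control. DBP was its lowest library, as for cxcl8a, but its highest was DBP+DiBP. The chemokine ccl19b had 2.55 FPKM in DBP, 2.26 FPKM in DiBP and 18.1 FPKM in DBP+DiBP, against 4.98 in control, and cxcl19 had 0.361 FPKM in DBP, 0.688 FPKM in DiBP and 27.5 FPKM in DBP+DiBP, against 0.171 in control. Of these, cxcl19 averaged 1 FPKM only through DBP+DiBP. The feature of ccl20b, at 23.3 FPKM in DBP, 3.72 FPKM in DiBP and 2.98 FPKM in DBP+DiBP against 9.70 in control, shares its values with tfr1b and is uncertain.

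Among 12 features for chemokine and interleukin 1 receptors and inflammasome processing, 0 reached 2-fold in DBP or DiBP (11.2% and 8.46% of all features called). In DBP+DiBP 3 exceeded control by 2-fold and 1 was lower (9.57% of all features higher and 6.42% lower). One of the 3, cxcr3.2, averaged 1 FPKM only through DBP+DiBP, and of the other 11 features 2 were higher and 1 lower. The inflammasome adaptor pycard had 3.08 FPKM in DBP, 1.71 FPKM in DiBP and 22.4 FPKM in DBP+DiBP, against 3.89 in control. The receptor CXCR4 ENSDARG00000041959 had 3.76 FPKM in DBP, 4.54 FPKM in DiBP and 14.4 FPKM in DBP+DiBP, against 5.90 in control, and cxcr3.2 had 0.686 FPKM in DBP, 0.568 FPKM in DiBP and 4.75 FPKM in DBP+DiBP, against 0.387 in control. IL1RAPL1 ENSDARG00000062045 was the lower one, with 0.244 FPKM in DBP+DiBP against 3.23 in control. Among 10 other cytokine features, 3 were lower than control in DBP, 1 was lower in DiBP and 2 were lower in DBP+DiBP, and 0 were higher in any of them. The matching shares of all features were 4.50%, 3.86% and 6.42% lower, and 6.68%, 4.60% and 9.57% higher. At these shares 10 features are too few to read anything from the 0 higher. The neutrophil growth factor gene csf3b had 2.73 FPKM in DBP, 8.58 FPKM in DiBP and 4.22 FPKM in DBP+DiBP, against 11.9 in control, the same order as for cxcl18b. The macrophage growth factor gene il34 had 2.13 FPKM in DBP, 2.77 FPKM in DiBP and 2.27 FPKM in DBP+DiBP, against 8.15 in control, and il11a had 0.228 FPKM in DBP, 1.62 FPKM in DiBP and 0.478 FPKM in DBP+DiBP, against 1.76 in control. The tumor necrosis factor gene tnfb, which averaged 1 FPKM only through DBP+DiBP, had 0.310 FPKM in DBP, 1.51 FPKM in DiBP and 2.35 FPKM in DBP+DiBP, against 0.783 in control, under 2-fold in each comparison with control.

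A list of NF-kB signalling genes, feedback inhibitors and partner transcription factors, which act on the promoters of such mediators, was compared in 29 features. In DBP 12 were lower and 2 higher than control, with a median of -0.59 (4.50% of all features lower and 6.68% higher). The lower ones were feedback genes and transcription factors such as nfkbiaa, CEBPB and FOSL1. The NF-kB subunit genes RELA, relb, REL and nfkb2 were under 2-fold in DBP, with differences of 0.08, 0.12, 0.10 and -0.16. The subunit gene nfkb1 was called higher there, at 1.35. In DiBP 2 were lower and 2 higher, with a median of -0.06 (3.86% of all features lower and 4.60% higher). The higher ones in DiBP were nfkb1, at 7.51 FPKM against 2.07 in control, and RELA, at 7.73 FPKM against 3.34 in control. In DBP+DiBP 3 were lower and 5 higher, with a median of 0.14 (6.42% of all features lower and 9.57% higher). The inhibitor nfkbiaa, a target and brake of NF-kB, had 17.8 FPKM in DBP, 61.6 FPKM in DiBP and 54.5 FPKM in DBP+DiBP, against 128 in control, and was lower in each. The AP-1 subunit gene FOSL1 had 1.44 FPKM in DBP, 6.59 FPKM in DiBP and 4.31 FPKM in DBP+DiBP, against 20.7 in control, in the order of cxcl18b. The transcription factor gene CEBPB was another case, with 14.1 FPKM in DBP, 131 FPKM in DiBP and 286 FPKM in DBP+DiBP, against 136 in control. CEBPD had 14.5 FPKM in DBP, 48.9 FPKM in DiBP and 135 FPKM in DBP+DiBP, against 32.9 in control. JUNB ENSDARG00000104773, another AP-1 subunit, had 21.4 FPKM in DBP, 191 FPKM in DiBP and 321 FPKM in DBP+DiBP, against 142 in control. These 3 genes had DBP as their lowest and DBP+DiBP as their highest library. In DBP+DiBP, then, cxcl18b and PTGS2 ENSDARG00000004539 were lower than in control while CEBPB, CEBPD and JUNB ENSDARG00000104773 were higher. The 2 features higher in DBP were nfkb1, at 6.85 FPKM in DBP against 2.07 in control, and IKBKB, at 6.05 FPKM in DBP against 2.45 in control.

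**Figure D4:**
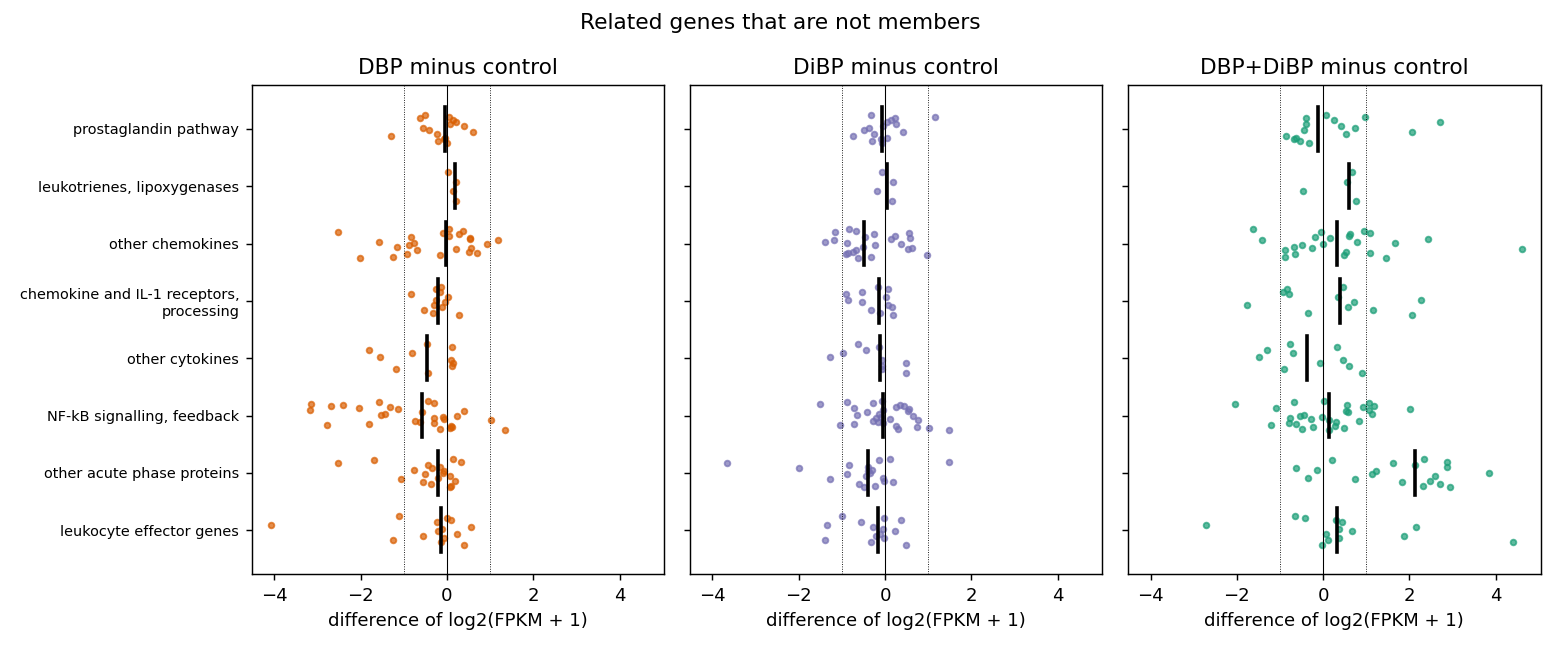
Difference of log2(FPKM + 1), exposed library minus control, for genes of 8 related lists that are not members, 1 point per feature, with the list median as a black bar and dotted lines at 2-fold; panels are DBP, DiBP and DBP+DiBP. The list of NF-kB signalling genes, feedback inhibitors and partner transcription factors has its median at -0.59 in DBP. The other acute phase proteins have theirs at 2.14 in DBP+DiBP.

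Other acute phase genes were higher in DBP+DiBP, as SAA2 was. Of 19 features compared, 14 were higher than control in DBP+DiBP and 0 lower (9.57% of all features higher and 6.42% lower). The median was 2.14, but 6 of the 19 averaged 1 FPKM only through that library. Of the remaining 13, 8 were higher, with a median of 1.63. The liver-expressed gene LECT2 ENSDARG00000033227 had 1.22 FPKM in DBP, 0.874 FPKM in DiBP and 32.9 FPKM in DBP+DiBP, against 1.37 in control. The fibrinogen gene fga had 0.953 FPKM in DBP, 0.326 FPKM in DiBP and 13.3 FPKM in DBP+DiBP, against 0.868 in control, and FGG had 0.435 FPKM in DBP, 0.212 FPKM in DiBP and 11.07 FPKM in DBP+DiBP, against 0.857 in control; both fga and FGG are among the 6 compared only through DBP+DiBP. In DBP 3 of 19 were lower and 0 higher (4.50% of all features lower and 6.68% higher). In DiBP 3 were lower and 1 higher (3.86% and 4.60% of all features). The gene tfa had the order of libraries of SAA2, which 5.54% of the compared features share. It had 2.08 FPKM in DBP, 0.409 FPKM in DiBP and 54.2 FPKM in DBP+DiBP, against 16.8 in control. The log2 difference of DiBP from DBP was -1.13 for tfa, called lower, and -0.11 for SAA2. The ferritin gene fth1a, next to saa in RefSeq's gene order, had 1111 FPKM in DBP, 1092 FPKM in DiBP and 5150 FPKM in DBP+DiBP, against 1014 in control, so it was high with SAA2 in DBP+DiBP but not low with it in the single exposures.

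Markers of leukocytes and of other tissues are given beside these values. The 5 of 8 neutrophil markers that matched summed to 26.1 FPKM in DBP, 26.0 FPKM in DiBP and 225 FPKM in DBP+DiBP, against 25.9 in control. The neutrophil sum was nearly the same in DBP, DiBP and control and higher in DBP+DiBP, but single markers moved in different directions. MMP9 had 11.3 FPKM in DBP against 8.39 in control, while lyz had 6.82 in DBP against 7.58 in control, and nccrp1 7.56 against 9.08. Whether neutrophil content bears on cxcl18b was not tested. Most of the sum in DBP+DiBP was lyz, at 181 FPKM. Of the 3 neutrophil features compared 2 were higher there (9.57% of all features higher), while MMP9 had 8.16 FPKM in DBP+DiBP and 8.39 in control. Both features matched to the receptor gene cxcr1 were listed at 0 in control, and mpx, cxcr2 and cpa5 were not matched to the name table. The 8 macrophage markers summed to 45.0 FPKM in DBP, 36.3 FPKM in DiBP and 258 FPKM in DBP+DiBP, against 30.5 in control. Of the 7 features that averaged 1 FPKM without the DBP+DiBP library, 7 were higher than control in DBP+DiBP and 3 in DBP. Of all features, 9.57% were higher in DBP+DiBP and 6.68% in DBP. Another 2, both copies of MPEG1, were compared only through DBP+DiBP. The 6 general leukocyte markers summed to 217 FPKM in DBP, 249 FPKM in DiBP and 381 FPKM in DBP+DiBP, against 187 in control. Most of that sum was cd74a and cd74b, with 227 and 75.5 FPKM in DBP+DiBP against 117 and 27.8 in control. The CORO1A feature, which shares its values with PAQR4, had 40.4 FPKM in DBP+DiBP against 37.9 in control. LCP1 had 26.7 against 1.57, and ptprc and SPI1 were also higher there.

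Among effector genes of leukocytes, lyz, the lysozyme gene, had 6.82 FPKM in DBP, 5.89 FPKM in DiBP and 181 FPKM in DBP+DiBP, against 7.58 in control, and the oxidase subunits NCF1 and cyba were also higher in DBP+DiBP than in control: NCF1 had 21.3 FPKM in DBP+DiBP and 5.06 in control, and cyba 24.0 in DBP+DiBP and 4.63 in control. TIMP2 ENSDARG00000075261 was lower in each exposed library. Of the 14 effector features compared, 3 were lower and 0 higher in DBP (4.50% of all features lower and 6.68% higher). In DiBP 2 were lower and 0 higher (3.86% and 4.60% of all features). In DBP+DiBP 1 was lower and 3 were higher (6.42% and 9.57% of all features). Without irg1l, which averaged 1 FPKM only through DBP+DiBP, 2 of 13 were lower in DBP and 1 in DiBP.

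The 8 hepatocyte markers summed to 29.1 FPKM in DBP, 8.02 FPKM in DiBP and 533 FPKM in DBP+DiBP, against 56.2 in control. The sum had the order seen for SAA2, an order that 1297 features, or 5.54% of those compared, also had. Among the markers, apoa2, FGB and ahsg2 did not follow it, being higher in DBP than in control, while the others did. Within the DBP sum of 29.1, apoa2 had 9.26 FPKM against 6.71 in control and tfa 2.08 against 16.8. SAA2 had 1.52 FPKM in DBP against 37.2 in control. Of the 5 features that averaged 1 FPKM without the DBP+DiBP library, 5 were higher in DBP+DiBP than in control (9.57% of all features higher). A further 2, serpina1 (whose values serpina1l shares) and ambp, were compared only through that library. None of the hepatocyte markers was listed at 0 in any library. The genes tfa, FGB, ahsg2 and ambp and the shared feature of serpina1 and serpina1l belong to both the hepatocyte and the acute phase list. These lists are thus not independent of each other. Most of the hepatocyte sum in DBP+DiBP, however, was apoa2 and apoa1b, at 209 and 198 FPKM, which are not on the acute phase list. The matched gut markers summed to 12.5 FPKM in DBP, 2.71 FPKM in DiBP and 2589 FPKM in DBP+DiBP, against 8.94 in control. Most of the DBP+DiBP sum was FABP6, and FABP2, VIL1 and the shared feature of apoa4b.1 and apoa4b.2 were compared only through that library. The part of hepatocytes and gut cells in the values of the members was not tested.

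**Figure D5:**
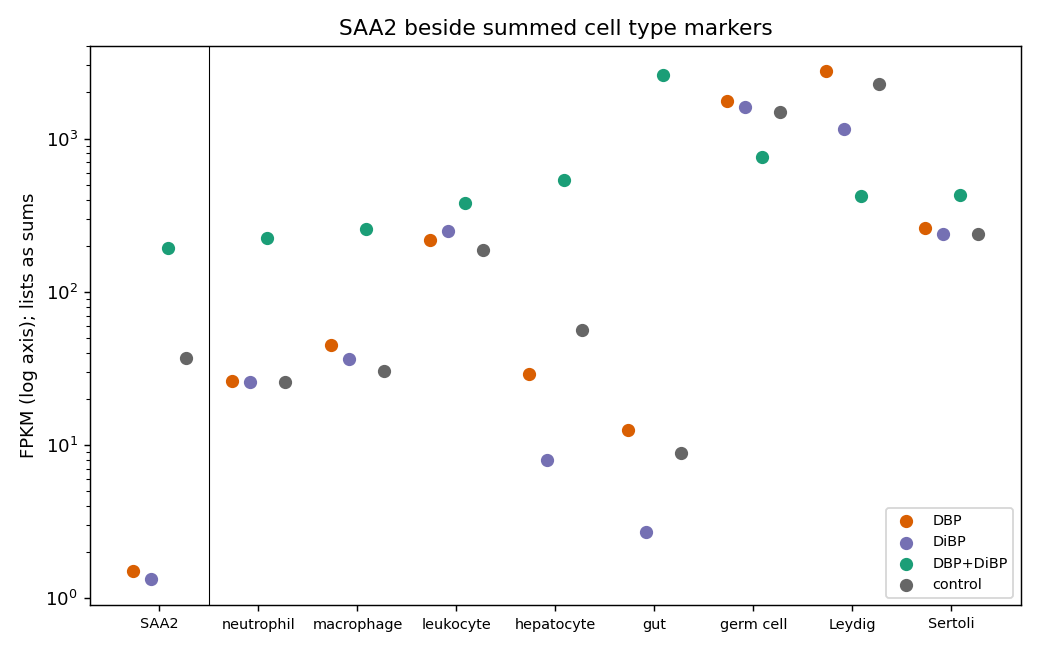
FPKM of SAA2 (left) and summed FPKM of the matched markers of 8 cell types on a log axis, with 1 point per library (DBP, DiBP, DBP+DiBP and control). The hepatocyte sum, with 533 FPKM in DBP+DiBP and 56.2 in control, has the order of SAA2, which 5.54% of the compared features share. The neutrophil sum lies at 26.1 in DBP, 26.0 in DiBP and 25.9 in control.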

How the data were processed

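Per the labels' protocols, RNA of frozen testes, purified on RNeasy columns, went into NEBNext Ultra libraries read in paired ends. HISAT2, HTSeq 0.6.1 and GRCz10 appear in the submitters' processing notes, without their roles. The authors deposited 1 value per gene and library, taken as FPKM from the values themselves: they are not whole, and library totals differ. Strand setting and read numbers are not given in the sources used here. Of 49610 identifiers, 35066 are Ensembl genes, 26996 of which have a symbol in the name table used. Identifiers with equal values in all 4 libraries were merged. Features averaging 1 FPKM or more (23405 of 42683 not all at 0) were compared as differences of log2(FPKM + 1), with values as deposited, a 2-fold rule, and no test, since each group is 1 library. Relative depth was the commonest ratio of low values between libraries. The rule was checked on simulated data. List genes were matched by symbol, then without the copy letter, then by synonym. From each list the text names the 4 genes with the widest log2 range. Outside that rule, PTGER4, nfkbiaa, nfkb1, IKBKB and fth1a were added after their values were seen. The NF-kB subunit genes RELA, relb, REL and nfkb2 were also named outside it. Profile neighbours are the 3 nearest. The members and lists were chosen with earlier results of these data known. Alternatives were other pseudocounts, scalings, filters and folds. Python 3.11.15 and pandas 2.3.3 were used.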

Additional observations from a re-analysis of the deposited data

Results flagged for a closer look

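SAA2 differed from control in opposite directions. Its log2 difference was -3.92 in DBP and -4.03 in DiBP, and 2.35 in DBP+DiBP. Each value comes from 1 library against the same control library, and the difference between the exposures was not tested. Hepatocyte markers summed to 29.1 FPKM in DBP, 8.02 FPKM in DiBP and 533 FPKM in DBP+DiBP, against 56.2 in control.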

How the results depend on the processing

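No paired analysis was possible because each group is 1 library, and for the same reason no library could be left out of its group. Over the 9 features, 6 comparisons and 5 other pseudocounts or scalings, 263 single values kept their direction and their side of 2-fold, 4 passed it and 3 no longer did, and none changed direction while called. PTGES passed 2-fold with a pseudocount of 0.1 in DBP (-1.14) and DiBP (-1.12) against control, and PTGS2 ENSDARG00000010276 in DBP+DiBP against control (1.14) and against DBP (1.23).

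A 4-fold call left 1 member called in DiBP against control and in DBP+DiBP against DBP and against DiBP. With the filter raised to 5 FPKM, which leaves 4 members, 3 were called in DBP+DiBP against DBP, and the member median was -4.13 in DBP, -1.54 for DiBP and -2.07 for DBP+DiBP against control, 1.53 in DiBP against DBP and -1.04 in DBP+DiBP against DiBP. Departures from additivity were larger with smaller pseudocounts: 11.61 (0.1) and 10.95 (0.5) for SAA2, 6.06 (0.1) and 3.88 (0.5) for cxcl8a, and, with 0.1, 3.63 for PTGS2 ENSDARG00000004539 and 2.51 for PTGES.

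Calls over all features against control, for DBP, DiBP and DBP+DiBP in turn, numbered 4530, 3974 and 6020 with a pseudocount of 0.1, 1021, 854 and 1597 with the 5 FPKM filter, 6520, 5907 and 8615 at 1.5-fold, and 491, 276 and 976 at 4-fold. For DiBP against DBP they were 3258, 640, 4543 and 273, and for DBP+DiBP against DiBP 6717, 2001, 9634 and 1092 in the same order of settings. For DBP+DiBP against DBP they were 2355 with the 5 FPKM filter, 10330 at 1.5-fold and 1149 at 4-fold. With library totals made equal, 64.8% of the DiBP calls against control were higher, in place of 54.4%, and 46.1% of those of DBP+DiBP against DiBP, in place of 56.1%. With median of ratios scaling, 59.1% of the calls of DBP+DiBP against DBP were higher, in place of 47.4%. A filter that leaves out DBP+DiBP, chosen after seeing the data, kept the member counts at 4, 4 and 5 against control.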
